A study of Mus musculus with 36 samples.

Results

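The transcripts that let the sarcoplasmic reticulum of heart muscle store, release and take back calcium were followed in mouse hearts from E10.5, embryonic day 10.5, to old adulthood. They are the 10 genes Ryr2, Trdn, Asph, Jph2, Casq2, Hrc, Atp2a2, Pln, Sln and Slc8a1, chosen by symbol in the array's annotation, out of 20701 genes that the arrays name. The annotation gives them 33 probe sets, each a set of short oligonucleotides that reports 1 transcript or part of it, of the 45101 on each array, and 27 of the 33 had a mean above 5 on the log2 scale in at least 1 stage. Hearts of OF1 mice, an outbred stock, were dissected daily over the 10 embryonic stages that end at E19.5, and from young adults of 10 weeks and old adults, whose age is 14 months in the series' design text and 10 months in the study's methods. The labels name no transgene and no treatment. Each of the 12 stages has 3 arrays, all of mixed sex at E10.5 and E11.5, and from E12.5 on 1 from a female, 1 from a male and 1 that pools male and female hearts, so that spread between hearts and sex cannot be told apart within a stage. Values are log2 intensities as the authors deposited them, and a difference of 1 is a 2-fold change. Arrays are given in the order female, male and mixed for E12.5 to E19.5, apart from E16.5, and male, mixed and female for adults.

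Each heartbeat begins with calcium that enters from outside and opens the ryanodine receptor RYR2, the release channel of the reticulum. Calsequestrin, encoded by Casq2, holds calcium in the lumen next to the channel, and triadin and junctin, from Trdn and Asph, tie the 2 together. The pump SERCA2, from Atp2a2, then takes calcium back under the brake of phospholamban and sarcolipin, from Pln and Sln, while the sodium-calcium exchanger NCX1, from Slc8a1, moves calcium out across the cell membrane. The young embryonic heart beats with a sparse reticulum and no transverse tubules, and relies more on calcium that crosses the cell membrane. The numbers below are transcript levels and give no protein or calcium flux.

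In these hearts Casq2 and Sln rose most before birth, Hrc and Sln rose between E19.5 and young adult, and Slc8a1 fell over both periods. Sln started from an E10.5 mean of 3.50, under 5. With the level of hybridization control probe sets in the model, the Slc8a1 change to E19.5 was -0.10 and did not pass. With the change of prefix in the array titles as a block, neither the Sln nor the Slc8a1 change to E19.5 passed. The stage means of Ryr2 and Atp2a2 were lowest at E13.5, as was that of Jph2, and no step between neighbouring days of these genes passed. Between young and old adult only Ryr2 passed the test on the brightest probe set of each gene. Its small increase was positive in all 13 alternatives, each on that same probe set, and passed in 7 of them. The dim second Ryr2 probe set went the other way, at -0.55, and did not pass.

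The sequences just before the transcription start are shown for the gene with the steepest embryonic rise, Casq2, for one that changed mainly after E19.5, Hrc, and for the one that fell from E10.5 to E19.5, Slc8a1. They are the 250 bases upstream in RefSeq's annotation of GRCm38.p6, written 5' to 3' on the gene's own strand, at chr3:102086165-102086414 on the plus strand for Casq2, chr7:45335019-45335268 on the plus strand for Hrc and chr17:81738388-81738637 on the minus strand for Slc8a1. Capitals mark every match, on either strand, to 6 motifs known from muscle promoters: the E-box CANNTG, the TATA box TATAAA, the GATA site as AGATAA or TGATAA, the MCAT box CATTCC, the MEF2 box and the CArG box.
Casq2: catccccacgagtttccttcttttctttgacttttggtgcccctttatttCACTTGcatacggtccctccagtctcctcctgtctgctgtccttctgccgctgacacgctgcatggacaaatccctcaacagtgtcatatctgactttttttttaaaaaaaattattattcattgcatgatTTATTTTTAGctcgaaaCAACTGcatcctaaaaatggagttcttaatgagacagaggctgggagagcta
Hrc: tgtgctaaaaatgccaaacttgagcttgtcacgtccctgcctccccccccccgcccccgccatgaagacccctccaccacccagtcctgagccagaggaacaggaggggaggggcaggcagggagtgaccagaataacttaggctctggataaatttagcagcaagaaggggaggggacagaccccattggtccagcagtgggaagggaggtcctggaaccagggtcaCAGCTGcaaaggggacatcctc
Slc8a1: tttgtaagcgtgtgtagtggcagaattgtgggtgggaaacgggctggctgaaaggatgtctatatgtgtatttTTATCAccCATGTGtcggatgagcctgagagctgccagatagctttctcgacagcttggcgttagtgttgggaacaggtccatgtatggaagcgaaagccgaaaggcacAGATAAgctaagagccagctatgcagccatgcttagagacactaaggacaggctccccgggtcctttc
Casq2 has a MEF2 box on bases -69 to -60 counted from its start, a motif found in 3.01% of 27025 promoter windows of this length, and 2 E-boxes. Slc8a1 has GATA sites on bases -177 to -172 and -68 to -63, a motif in 17.0% of all windows, and 1 E-box. Hrc has 1 E-box and no other of the 6, and E-boxes stand in 66.0% of all windows. No 2 matches in these 3 sequences overlap. Of the other members with a window, Pln has an E-box, 2 GATA sites and a TATA box, a motif in 13.0% of windows, and Ryr2 and Jph2 have E-boxes only. The MCAT box, in 12.6% of all windows, and the CArG box, in 1.4%, were in none of the 6 member windows. The matches describe the letters, and binding was not measured here.

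The labelled tissue was first checked against marker genes. All 5 measured cardiomyocyte markers lay above 5 in every stage, with a stage mean of their average between 11.54 and 12.33, and none of 4 liver markers did, although the extraction text of the labels names liver. Other cell types shifted with stage. The average of 5 erythroid markers was 9.54 in the youngest hearts and 3.85 at E19.5, that of 5 fibroblast markers was 7.58 and 10.37 at these stages, and that of 4 ventricular markers was 10.56 at E19.5 and 9.28 in young adults. Skeletal muscle markers averaged 3.17 to 3.72 with at most 1 of 6 above 5. In whole hearts fewer cells of a type and less RNA per cell cannot be told apart, and the part of these shifts in the results below was not tested. The arrays also differed in the level of 18 hybridization control probe sets, which was 9.68 to 10.35 at E10.5, 10.97 to 11.39 at E19.5, 12.03 to 12.43 in young adults and 11.16 to 11.56 in old adults. Within stages this level went with several members over the 36 arrays, with r = -0.84 for Slc8a1, -0.82 for Atp2a2, -0.76 for Pln, -0.67 for Ryr2 and 0.75 for Trdn. With this level in the model, calls that were lost or gained are given beside each gene. Sizes also moved by over 1.5 times where the call held. To E19.5 the change of Atp2a2 was 1.56, of Pln 1.65, of Ryr2 1.22, of Trdn 1.27 and of Asph 1.02, and from E19.5 to young adult that of Ryr2 was -0.68 and of Casq2 -0.65.

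**Figure D1:**
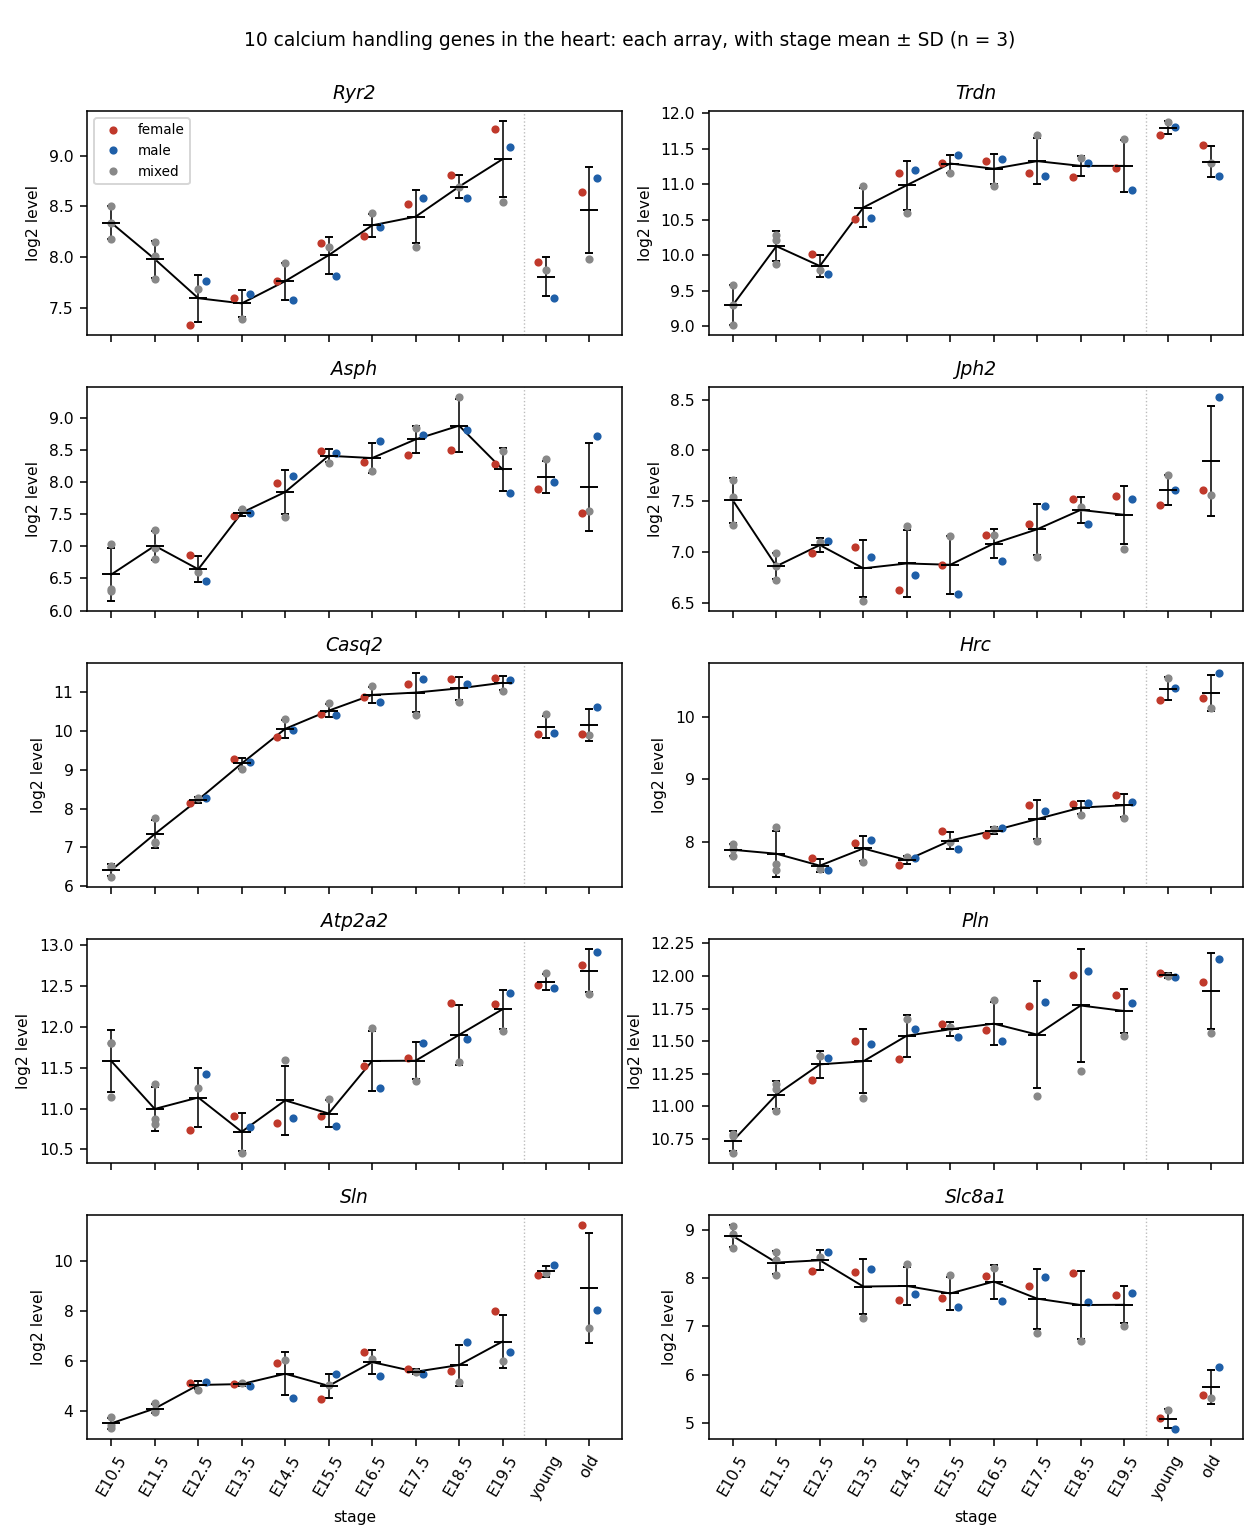
Log2 level of the 10 genes (y axis, 1 panel per gene with its own scale) at 12 stages (x axis), with a point per array colored by sex label, and the stage mean with SD (n = 3). Casq2 climbs from a mean of 6.42 to 11.24 over the embryonic days, Hrc and Sln stand highest in adults, and Slc8a1 stands lowest there. The stage means of Ryr2 and Atp2a2 are lowest at E13.5.

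Among the genes of the release unit, Ryr2 (chr13:11553099-12106945, GRCm38.p6 as for all members) had stage means that fell to E13.5 and climbed to E19.5, with no daily step that passed. Its arrays read 8.34, 8.50 and 8.18 at E10.5, 7.60, 7.64 and 7.39 at E13.5, 9.26, 9.09 and 8.55 at E19.5, and 7.59, 7.88 and 7.95 in young adults. The E19.5 arrays lie above all those of E10.5, E13.5 and young adult. By limma, Ryr2 rose by 0.63 ± 0.19 (SE) from E10.5 to E19.5 (adjusted p = 0.00716) and fell by 1.16 from E19.5 to young adult (SE 0.19, adjusted p = 1.18e-05), which leaves young adults 0.53 below E10.5 (adjusted p = 0.015). That last difference was -0.00 on arrays centred on their median and 0.54 with the hybridization control level in the model, so its direction is not settled. The rise to E19.5 was 0.48 and did not pass without E19.5 array 1. The second Ryr2 probe set, 1421126_at, had stage means of at most 4.35 and was higher in young adults than at E19.5 by 0.58.

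Trdn (chr10:33083483-33476709) encodes triadin, which anchors calsequestrin to the channel. On its brightest probe set, 1426142_a_at, the arrays read 9.30, 9.02 and 9.59 at E10.5, 11.22, 10.91 and 11.64 at E19.5, and 11.81, 11.88 and 11.69 in young adults. All late fetal and young adult arrays stand above those of E10.5. The rise to E19.5 was 1.96 ± 0.19, or 3.88-fold (adjusted p = 1.8e-09). A further 0.53 ± 0.19 from E19.5 to young adult passed the test (adjusted p = 0.0359), but it was 0.48 and did not pass after quantile renormalization, and was -0.02 with the hybridization control level in the model. It also did not pass without E19.5 array 1 or 2 or young adult array 1 or 2, at 0.36 to 0.53.

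Of the other 5 Trdn probe sets, 3 fell between E19.5 and young adult. On 1426143_at the arrays read 8.97, 8.85 and 9.60 at E10.5, 11.09, 11.13 and 11.67 at E19.5, 9.14, 9.52 and 9.09 in young adults, and 7.69, 7.41 and 8.36 in old adults. The E19.5 arrays lie above all the adult ones, and the old arrays below the young. This probe set rose by 2.15 to E19.5 (adjusted p = 1.6e-07), fell by 2.05 to young adult (adjusted p = 4.6e-07) and fell again by 1.43 in old adults (adjusted p = 0.00141). The probe sets 1426144_x_at and 1451801_at fell by 1.16 and 1.04 from E19.5 to young adult, and for 1451940_x_at and 1426134_at the changes of -0.16 and 0.10 did not pass. The difference between 1426143_at and 1426142_a_at on the same array, a pair chosen after its values were seen, changed by 0.20 ± 0.16 from E10.5 to E19.5 (adjusted p = 0.313), by -2.58 ± 0.16 from E19.5 to young adult (adjusted p = 8.0e-14) and by -0.96 ± 0.16 from young to old adult (adjusted p = 0.00052). Trdn is spliced into several isoforms, and which of them each probe set reads was not analysed here.

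Asph (chr4:9449085-9669344) makes junctin and, from other exons, an aspartyl hydroxylase and a short membrane protein. On 1425274_at its arrays read 6.31, 6.34 and 7.04 at E10.5, 8.28, 7.84 and 8.48 at E19.5, and 8.003, 8.36 and 7.89 in young adults. The E10.5 arrays lie below all the others listed, while E19.5 and young adult overlap. The rise to E19.5 was 1.64 ± 0.25 (adjusted p = 4.1e-06), and the highest stage mean was 8.88 at E18.5. The probe set 1426015_s_at went the other way, from 7.78, 7.88 and 7.54 at E10.5 to 7.04, 6.68 and 6.50 at E19.5 and 5.16, 5.28 and 5.53 in young adults. Its 3 sets of arrays do not overlap, and it fell by 2.41 from E10.5 to young adult (adjusted p = 1.8e-06), against a rise of 1.52 ± 0.25 on 1425274_at. The log2 ratio of these 2 probe sets fell by 2.63 to E19.5 (SE 0.49, adjusted p = 6.4e-05) and by 1.30 from there to young adult (adjusted p = 0.0439), again a pair chosen after its values were seen. Of the remaining Asph probe sets, 1425275_at rose by 1.56 from E10.5 to young adult, 1420959_at fell by 0.98 and 1450058_at fell by 0.48, and 1436455_at, with stage means under 3, did not pass. With the hybridization control level in the model the rise of 1425274_at to young adult was 0.40 and did not pass.

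Jph2 (chr2:163336242-163398049) encodes junctophilin, which holds the reticulum against the cell membrane. Its stage means ran from 6.84 at E13.5 to 7.90 in old adults. The arrays were 7.54, 7.71 and 7.27 at E10.5, 7.55, 7.52 and 7.03 at E19.5, and 7.61, 7.76 and 7.47 in young adults, and these 3 groups overlap. Neither the change to E19.5, -0.14 ± 0.21, nor that from E10.5 to young adult, 0.11 ± 0.21, passed the test. Young adults were higher than E11.5 to E16.5 by 0.53 to 0.77, and these 6 comparisons passed. The difference between E10.5 and young adult was 0.63 after median centring, 0.58 after quantile renormalization and 1.22 with the hybridization control level in the model, and passed in these 3. With that level the change from E19.5 to young adult was 0.74 and passed too, where it had been 0.25 and did not. The second Jph2 probe set, 1421453_at, had stage means of at most 4.49 and rose by 0.56 to E19.5 (adjusted p = 0.0058).

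Of the luminal proteins, Casq2 (chr3:102086415-102146514) encodes the main calcium buffer of the lumen, and its embryonic slope was the steepest of the 10. Its arrays read 6.24, 6.51 and 6.49 at E10.5, 8.14, 8.27 and 8.28 at E12.5, 9.85, 10.01 and 10.30 at E14.5, 11.37, 11.31 and 11.04 at E19.5, and 9.95, 10.43 and 9.91 in young adults. The embryonic groups named do not overlap, and the young adult arrays lie below those of E19.5. Casq2 rose by 4.82 ± 0.22, or 28.3-fold, from E10.5 to E19.5 (adjusted p = 2.9e-17), with a slope of 0.54 ± 0.02 per day. It then fell by 1.14 to young adult (SE 0.22, adjusted p = 1.2e-04), and was 3.68 above E10.5 there. The stage means from E14.5 to young adult lay between 10.05 and 11.24, and those of E14.5 and E15.5 did not differ from young adult by the test.

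Hrc (chr7:45335269-45338973) encodes a histidine-rich calcium binder of the lumen that also meets triadin and the pump. Its arrays read 7.77, 7.88 and 7.97 at E10.5, 8.74, 8.63 and 8.38 at E19.5, 10.46, 10.62 and 10.26 in young adults and 10.70, 10.14 and 10.29 in old adults. Every adult array lies above every embryonic one. Hrc rose by 0.71 ± 0.17 to E19.5 (adjusted p = 8.6e-04) and by 1.86 ± 0.17, or 3.63-fold, from E19.5 to young adult (adjusted p = 2.5e-10). The later change kept its direction and passed the test in all 13 alternatives, between 1.76 and 2.07.

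Calcium uptake rests on Atp2a2 (chr5:122453513-122502225), which encodes the pump. Its arrays read 11.80, 11.80 and 11.14 at E10.5, 10.91, 10.78 and 10.46 at E13.5, 12.28, 12.41 and 11.95 at E19.5, and 12.47, 12.65 and 12.50 in young adults. The E13.5 arrays are below all the others listed, and the young adult arrays above all of E19.5, if narrowly. Arrays of E11.5, E12.5, E14.5 and E15.5 overlap those of E13.5. Atp2a2 rose by 0.63 ± 0.23 from E10.5 to E19.5 (adjusted p = 0.025). The step from E19.5 to young adult, 0.33 ± 0.23, did not pass as deposited (adjusted p = 0.306), and over its 13 alternatives it ran from 0.20 to 1.07 and passed in 2, median centring and the hybridization control covariate. The rise from E10.5 to E19.5 passed in 8 of 12 alternatives, and not without E10.5 array 3, at 0.41, or without E19.5 array 1 or 2, at 0.60 and 0.53.

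The Atp2a2 probe sets disagree as well. 1452363_a_at rose by 1.25 from E10.5 to young adult and by 0.64 from E19.5 (adjusted p = 0.038). 1427250_at read 9.98, 10.13 and 10.01 at E10.5 and 8.82, 9.19 and 8.93 in young adults, and fell by 1.06 (adjusted p = 6.6e-05). 1437797_at rose by 1.37 to E19.5 and fell by 0.81 after it. The dim probe set 1427251_at fell by 1.33 from E10.5 to young adult, and 1443551_at, which stayed under 5, rose by 0.59 to E19.5 and fell by 1.06 after it. The difference between 1427250_at and the brightest probe set fell by 2.03 from E10.5 to young adult (SE 0.20, adjusted p = 2.7e-10), in a pair chosen after its values were seen.

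**Figure D2:**
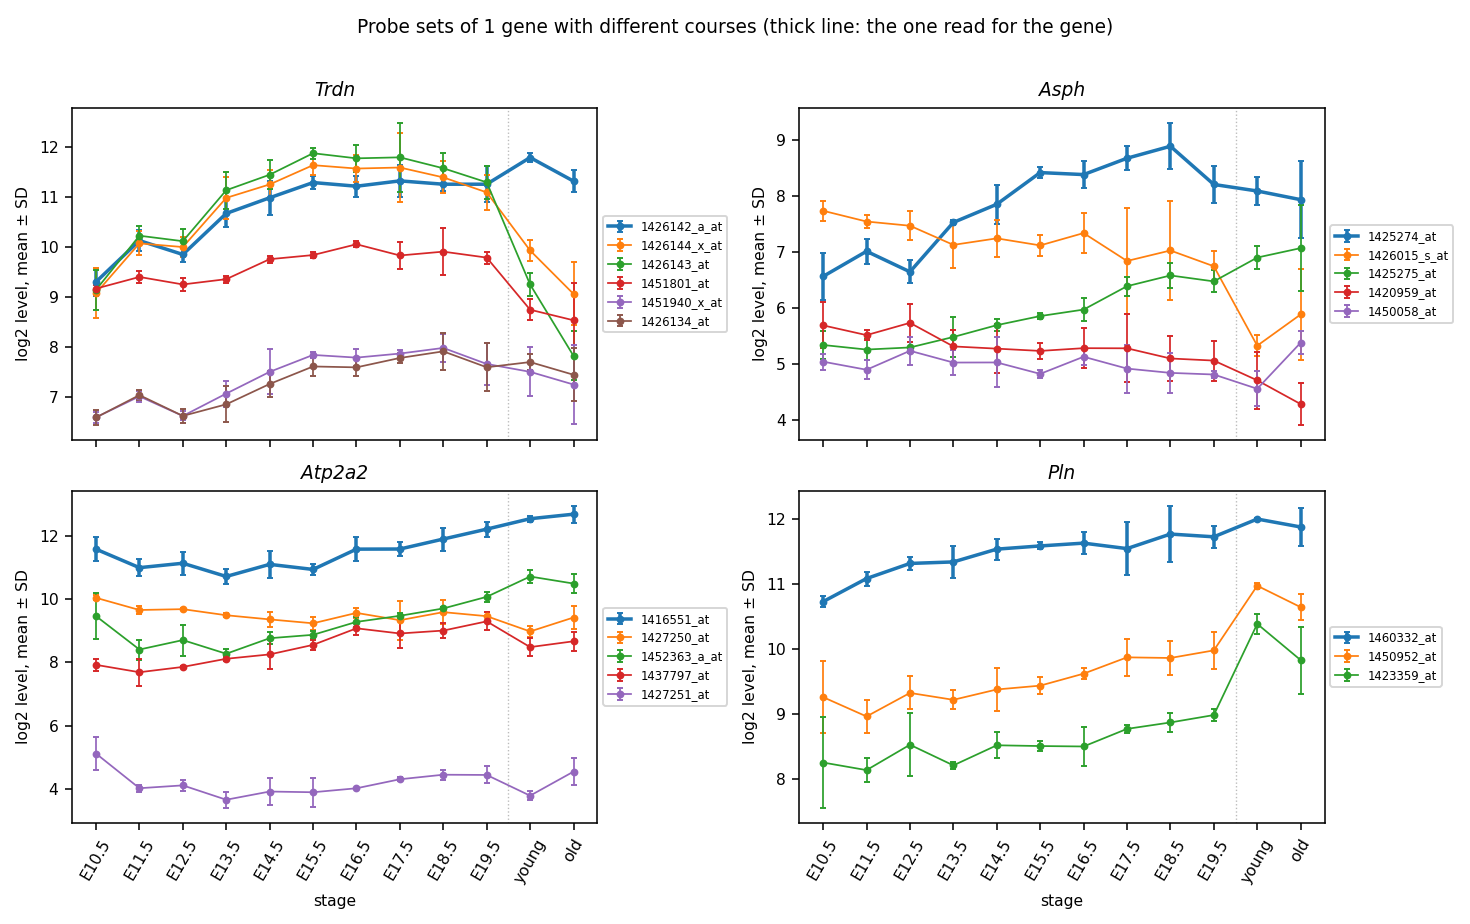
Log2 level of each probe set of Trdn, Asph, Atp2a2 and Pln with a mean above 5 in some stage (y axis, mean with SD, n = 3) by stage (x axis), the thick line being the probe set read for the gene. Trdn 1426143_at drops from 11.30 at E19.5 to 9.25 in young adults while 1426142_a_at does not, and Asph 1426015_s_at declines while 1425274_at climbs.

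Pln (chr10:53337686-53345999) encodes phospholamban, which slows the pump until it is phosphorylated. On its brightest probe set the arrays read 10.79, 10.77 and 10.64 at E10.5, 11.86, 11.80 and 11.54 at E19.5, and 11.99, 12.00 and 12.02 in young adults. Each group lies above the one before. Pln rose by 1.00 ± 0.18 to E19.5 (adjusted p = 5.2e-05), and the 0.27 ± 0.18 from there to young adult did not pass (adjusted p = 0.284). It passed in 2 of 13 alternatives, at 0.46 with median centring and 0.80 with the hybridization control level in the model. The 2 dimmer probe sets, 1450952_at and 1423359_at, rose by 0.99 ± 0.21 (adjusted p = 4.2e-04) and 1.40 ± 0.24 (adjusted p = 3.5e-05) over that same period. On 1423359_at the arrays went from 9.04, 9.04 and 8.88 at E19.5 to 10.51, 10.22 and 10.45 in young adults, without overlap.

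Sln (chr9:53850251-53853849) encodes sarcolipin, which also acts on the pump and in the heart is known as an atrial gene. Its arrays read 3.73, 3.32 and 3.43 at E10.5, 7.97, 6.35 and 5.99 at E19.5, 9.83, 9.503 and 9.41 in young adults, and 8.02, 7.30 and 11.43 in old adults. The first 3 groups are apart, and the old adult arrays spread to both sides of the young ones. Sln rose by 3.27 ± 0.59, or 9.65-fold, to E19.5 (adjusted p = 4.6e-05) and by 2.82 ± 0.59, or 7.04-fold, from E19.5 to young adult (adjusted p = 4.3e-04). Its E10.5 values are under 5, the study's limit for expression. The other Sln probe set, 1420883_at, had stage means of at most 3.91.

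Atrial markers moved with Sln from array to array. The old female array with Sln at 11.43 had Myl7, the atrial myosin light chain, at 12.73, and the old male and mixed arrays with Sln at 8.02 and 7.30 had Myl7 at 9.46 and 9.53. Within stages, over 36 arrays, Sln went with Myl7 at r = 0.90, with Myl4 at 0.84, with the mean of 5 atrial markers at 0.83 and with Nppa at 0.29. These values describe arrays of 1 series and carry no test. Without the old female array they were 0.72, 0.54, 0.56 and 0.38. The atrial marker mean spanned 7.65 to 10.02 in old adults against 8.80 to 9.06 in young adults, with Bmp10 under 5 on every array. The share of atrial tissue on each array was not measured, and its part in the Sln values was not tested. Across stages Myl7 averaged 12.98 in the E10.5 hearts, 10.31 in those of E19.5 and 11.05 in young adults. Between E19.5 and young adult, where Sln rose by 2.82, Myl4 went from 9.76 to 10.50, Nppa from 11.24 to 12.02 and the atrial marker mean from 8.33 to 8.90.

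**Figure D3:**
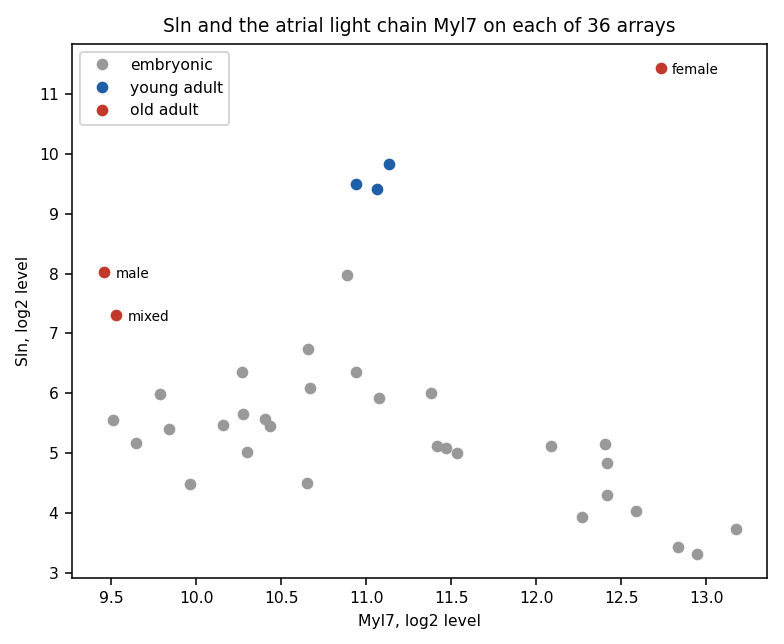
Log2 level of Sln (y axis) against the atrial light chain Myl7 (x axis) on each of 36 arrays, colored as embryonic, young adult and old adult, with the sex label beside the old adult arrays. The old female array stands at 12.73 for Myl7 and 11.43 for Sln, and the other 2 old arrays near 9.5 for Myl7.

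Slc8a1 (chr17:81373105-81738387) encodes the exchanger and fell both before and after E19.5. Its arrays read 8.91, 9.08 and 8.62 at E10.5, 7.66, 7.68 and 7.004 at E19.5, 4.89, 5.27 and 5.11 in young adults, and 6.16, 5.52 and 5.58 in old adults. Both adult groups lie under every embryonic array. It fell by 1.42 to E19.5 (SE 0.31, adjusted p = 4.2e-04) and by 2.36, or 5.13-fold, from E19.5 to young adult (SE 0.31, adjusted p = 4.2e-07), and met the study's limits against young adult at each of the 10 embryonic stages. The young adult mean of 5.09 lies near 5, the study's limit for expression, so the size of the fall to young adult is uncertain. With the hybridization control level in the model the first change was -0.10 and did not pass, and the second was -1.30 and passed. The other 3 Slc8a1 probe sets had stage means of at most 5.17. Of these 1425817_a_at fell by 0.86 to E19.5 and 1440201_at by 1.26 from E19.5 to young adult, and 1420210_at did not pass.

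Counted over the 10 genes, 8 rose and 1 fell from E10.5 to E19.5 at an adjusted p under 0.05, where 23.7% of all probe sets rose and 21.8% fell. The study's own limits are an adjusted p under 1e-05, a log2 change above 2 and a mean above 5 in some stage, and Casq2 alone met them, against a background of 0.698% upward and 1.48% downward. From E19.5 to young adult 3 rose and 3 fell, with 13.6% and 15.5% of all probe sets, and Slc8a1 met the limits, beside 0.634% upward and 0.818% downward. From E10.5 to young adult 7 rose and 2 fell, against 35.9% and 27.1%. Casq2, Sln, Trdn and Hrc met the limits upward, where 2.1% did, and Slc8a1 downward, where 4.43% did. With the hybridization control level in the model Trdn at 1.25, Slc8a1 at -1.40 and Sln, by its adjusted p of 1.5e-05, left these limits, and Atp2a2 at 2.63 and Pln at 2.44 entered them. With the title prefix as a block Sln left them, at an adjusted p of 2.6e-04. The median change of the 10 was 0.85 to E19.5, 0.26 from there to young adult and 1.40 over the whole span, beside 0.15, 0.04 and 0.19 over all probe sets. These comparisons share control arrays. With the change of prefix in the array titles as a block, the change to E19.5 no longer passed for Ryr2 at 0.78, Atp2a2 at 0.73, Sln at 2.66, Hrc at 0.81 and Slc8a1 at -1.59. Every array to E15.5 lacks the prefix and every array from E17.5 on has it, so only the E16.5 arrays inform this block. Otherwise the prefix is confounded with this comparison, and a lost call cannot tell a batch from lost precision. Over all 33 probe sets 21 rose and 5 fell to E19.5, and 7 rose and 11 fell from E19.5 to young adult. Among probe sets with a mean above 5 in some stage the median change was -0.21, -0.13 and -0.41 over the same periods. Median centring used a different set, the probe sets with a mean above 5 over all 36 arrays. Centring each array on the median of that set adds 0.34 to every change up to E19.5, 0.18 to every change from there to young adult and 0.53 over the whole span. Relative to that median, the brightest probe sets of Casq2, Sln, Trdn and Hrc were still higher in young adults than at E10.5, and that of Slc8a1 still lower. As deposited, Trdn 1426144_x_at, 1451940_x_at and 1426134_at rose over this span by 0.86, 0.91 and 1.11. The changes of 0.11 on Trdn 1426143_at and -0.42 on Trdn 1451801_at did not pass.

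**Figure D4:**
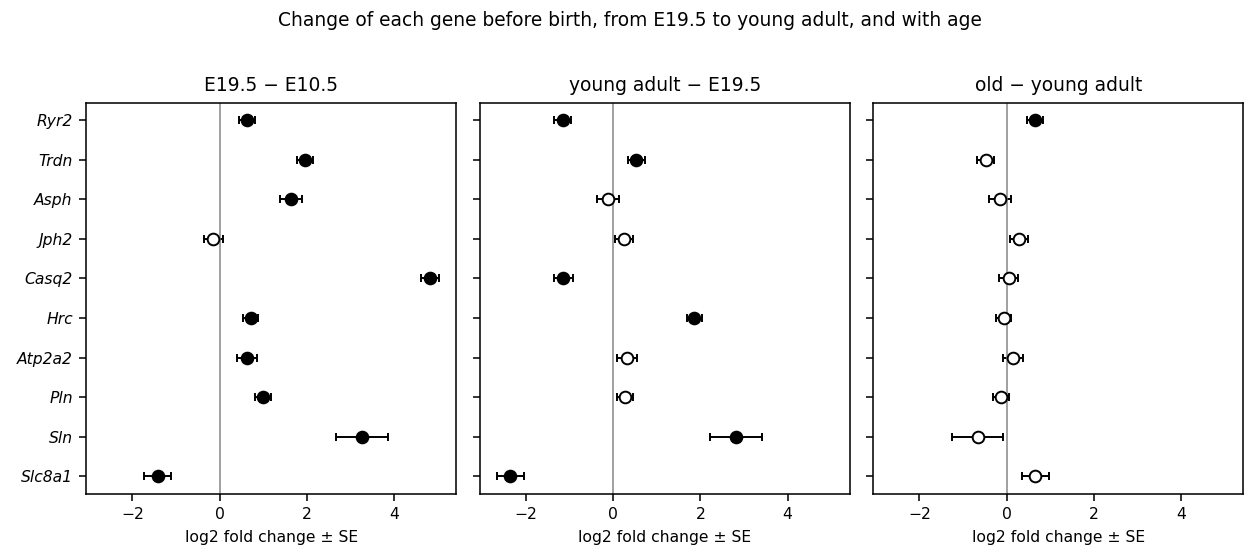
Log2 fold change with SE (x axis) of the 10 genes (y axis) from E10.5 to E19.5, from E19.5 to young adult and from young to old adult, by limma, with filled points for an adjusted p under 0.05. Casq2 at 4.82 leads the first panel, Sln at 2.82 and Slc8a1 at -2.36 mark the ends of the second, and Ryr2 at 0.66 is the one filled point of the last.

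The daily series was also read as a linear slope from E10.5 to E19.5. It was positive and passed for 8 genes and negative for Slc8a1, at -0.14 ± 0.02 per day, where 40.9% of all probe sets rose and 26.1% fell. With the title prefix as a block, which only the E16.5 arrays inform, the slopes of 5 of the 10 genes passed. The share of all probe sets that pass with this block was not counted, so this count has no background beside it. After Casq2 the steepest were Sln at 0.28 ± 0.05, Asph at 0.25 ± 0.02 and Trdn at 0.21 ± 0.02 per day, and Jph2, at 0.02 ± 0.02, did not pass. Single days rarely sufficed. Of 90 steps between neighbouring days 4 passed, against 0.592% of all such steps over all probe sets. These were Casq2 from E10.5 to E11.5 at 0.93 ± 0.22 and from E12.5 to E13.5 at 0.93 ± 0.22, and Trdn over the same days at 0.83 ± 0.19 and 0.82 ± 0.19. No other step passed, so that most neighbouring stages of a gene could not be ordered at this number of arrays.

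Ratios of 2 genes on the same array show unequal change and do not compare their levels. The log2 ratio of Casq2 to Ryr2 ran from -2.09 to -1.68 at E10.5 and from 2.10 to 2.49 at E19.5. It rose by 4.19 ± 0.21 (adjusted p = 3.0e-16) and then changed by 0.02 ± 0.21 to young adult (adjusted p = 0.968). Both genes fell over that period, Ryr2 by 1.16 and Casq2 by 1.14. The ratio of Slc8a1 to Atp2a2, the exchanger against the pump, fell by 2.05 to E19.5 (SE 0.19, adjusted p = 2.7e-10) and by 2.69 from E19.5 to young adult (SE 0.19, adjusted p = 7.7e-13), and passed in all 12 alternatives of each. Its size depends on the probe sets, since over the mean of the expressed probe sets the changes were -1.05 and -1.13. The change to young adult also rests on Slc8a1 values near 5 there. This ratio ran from -2.88 to -2.52 at E10.5, from -4.94 to -4.62 at E19.5 and from -7.59 to -7.38 in young adults. The ratio of Sln to Myl7 rose by 5.94 ± 0.28 to E19.5 (adjusted p = 9.6e-17) and by 2.09 ± 0.28 after it (adjusted p = 6.5e-07). Sln was under 5 at E10.5, so the size of the first of these changes, and of the Sln change itself, is uncertain.

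The ratio of Pln to Atp2a2, the brake against the pump, was -0.84 ± 0.30 (SD, n = 3) at E10.5, 0.65 ± 0.14 at E15.5, -0.48 ± 0.12 at the last embryonic day and -0.54 ± 0.10 in young adults. Its net change was 0.36 ± 0.17 (SE) to E19.5 (adjusted p = 0.0825) and -0.06 ± 0.17 from there to young adult (adjusted p = 0.848), and neither passed. Read as the mean over the expressed probe sets of each gene, the same ratio rose by 0.54 and by 1.09, and both passed. It also passed to E19.5, at 0.54, without E10.5 array 3.

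**Figure D5:**
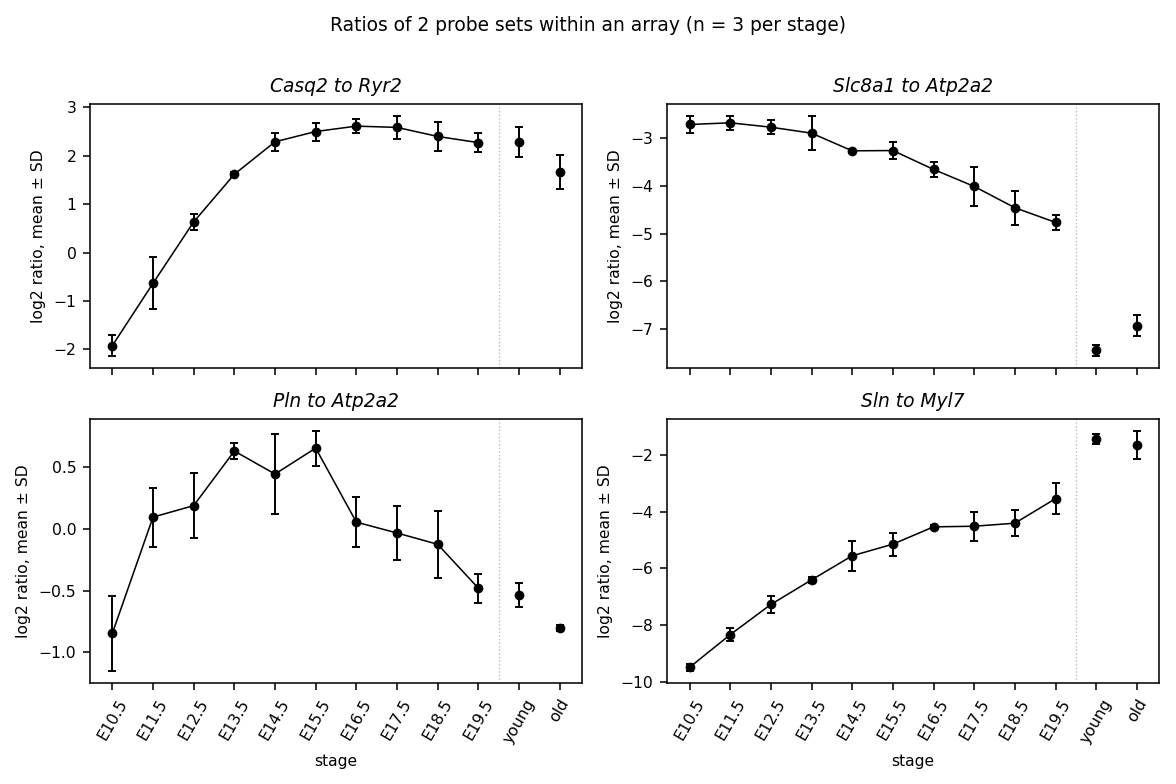
Log2 ratio of 2 probe sets within an array (y axis, mean with SD, n = 3) by stage (x axis) for Casq2 to Ryr2, Slc8a1 to Atp2a2, Pln to Atp2a2 and Sln to Myl7. Casq2 to Ryr2 levels off after E14.5, Slc8a1 to Atp2a2 declines from E13.5 on and again to young adult, and Pln to Atp2a2 is highest between E13.5 and E15.5.

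With age few changes among the 10 were detectable. At an adjusted p under 0.05, Ryr2 was higher in old adults by 0.66 ± 0.19 (adjusted p = 0.0283) and none was lower, with 3 of 10 at an unadjusted p under 0.05, where 6.96% of all probe sets changed in either direction. The old arrays of Ryr2 read 8.78, 7.98 and 8.64 against 7.59, 7.88 and 7.95, and none lies within the young range. Over 13 alternatives its adjusted p ran from 0.00565 to 0.386, and 7 passed. It did not pass without young adult arrays 1 or 2, or without old adult arrays 1 or 3, and was 0.28 with the hybridization control level in the model. None met the study's limits. Sln, at -0.66 ± 0.59 (adjusted p = 0.535), was -1.92 and passed once the old female array was left out. Pln, at -0.12 ± 0.18, was -0.54 and passed with the hybridization control level in the model. Of the other probe sets, Atp2a2 1427251_at rose by 0.76 and Asph 1450058_at by 0.82, beside the decline of Trdn 1426143_at given above. The second Ryr2 probe set, 1421126_at, went the other way from the first, from 4.35 to 3.80, and did not pass by limma (adjusted p = 0.0961).

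No sex difference was detected. E12.5 was left out, as in the methods. Over the other 9 male and female pairs the male minus female difference of the 10 genes ran from -0.57 ± 0.34 for Sln to 0.21 ± 0.12 for Asph, and 0 of 10 passed in limma or at an unadjusted p under 0.05, where 0.0488% of all probe sets passed after adjustment. The difference between mature and embryonic hearts in this contrast passed for none after adjustment, and for Jph2 at 0.62 and Asph at 0.57 at an unadjusted p under 0.05.

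Of 41 other calcium handling genes listed from general knowledge 38 were measured, and 15 rose and 9 fell from E10.5 to E19.5, beside 23.7% and 21.8% of all probe sets, while 11 rose and 8 fell from E19.5 to young adult, beside 13.6% and 15.5%. The same shares stand beside the lists that follow. Their median changes were 0.26 and 0.05. Before birth the ones past the study's limits were Hspb6, a small heat shock protein that bears on phospholamban phosphorylation, at 4.41 ± 0.28, and S100a1, a binder of the release channel and the pump, at 2.06 ± 0.27. From E19.5 to young adult they were Tcap, a titin cap protein listed with the transverse tubule genes, at 3.51 ± 0.19, and Ryr3, a sister channel of Ryr2, which fell by 2.97 (SE 0.29). From E10.5 to young adult Hspb6, Tcap and S100a1 rose by 5.95, 4.14 and 3.53 and Ryr3 fell by 2.05 within the limits. The Hspb6 mean at E10.5 was 4.08 and the Ryr3 mean in young adults 3.55, both under 5. The sizes of the Hspb6 rises and Ryr3 falls are therefore uncertain. Of the 10 paralogs, 4 of which passed 5 in some stage, 3 rose to E19.5, Ryr3, Atp2a3 and the dim Jph4. To young adult 5 then rose, of which Ryr1, Atp2a1, Slc8a2 and Jph3 stayed under 5 and Atp2a3 did not, and Ryr3 and the skeletal calsequestrin Casq1 fell. Of 12 release regulators 3 rose and 5 fell before birth, and of 9 lumen, counter-ion and entry genes 5 rose and 4 fell. Of 4 transverse tubule genes Cav3 rose to E19.5 by 0.98, Speg by 1.07, Tcap by 0.62 and Bin1, whose stage means there were 4.24 and 4.62 and so under 5, by 0.38, and of 3 plasma membrane pumps none passed. In old adults Ryr3 was higher by 2.04 (SE 0.29, adjusted p = 8.2e-05), from a young adult mean of 3.55, and Atp2a1, the skeletal pump, was lower by 0.54, at means of 4.79 and 4.24, all under 5 but the old Ryr3 mean of 5.58, so that these sizes are uncertain, with 36 of 38 not passing.

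Genes with the most similar courses over the 12 stage means were found by Pearson's r, a likeness of averages in one series of stages. For Slc8a1 they were Ddx39a at 0.996, Birc5 and Sipa1l2, for Hrc they were Chpt1 at 0.993, Tuba4a and Klf9, and for Trdn they were Tmco4 at 0.990, Ubr2 and Tep1. Asph was nearest to Tango2 at 0.989, Dnajb5 and Nbeal2, Sln to Matn2 at 0.988, Camk2n1 and Ogn, and Casq2 to Col14a1 at 0.986, 2900040J22Rik and Rogdi. Jph2 was nearest to Alkbh7 at 0.984, Etfb and Sgcb, Pln to Cavin2 at 0.979, Mylk and Herpud2, and Atp2a2 to Cmss1 at 0.978, Ndufb7 and Opa3. Ryr2 had the loosest neighbours, Fhod3 at 0.909, Mppe1 and Cycs. Among the members themselves the highest r over stage means was 0.94, for Casq2 with Asph, and the lowest was -0.97, for Sln with Slc8a1. Within stages the signs partly differ, as for Trdn with Casq2, at 0.91 over stage means and -0.53 over the arrays within stages.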

How the data were processed

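Hearts of OF1 mice at 12 stages were measured on 36 Affymetrix mouse genome arrays, 3 per stage. The deposited values are log2 intensities that the authors made by robust multi-array average (background subtraction, normalization between arrays, 1 value per probe set). The submitters' processing notes name Affymetrix Expression Console, Partek 6.6 and RMA. The deposited columns do not share 1 distribution, with a 75th percentile between 5.60 and 6.11 and an SD between 1.89 and 2.24. They were used unchanged, and 0 columns of values were left out. The number of arrays limits the precision. The methods call the arrays of a stage biological replicates, the mixed ones holding hearts of both sexes.

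In R 4.3.3, limma 3.58.1 fitted 1 model of 12 stage means to all 36 arrays and 45101 probe sets, with Benjamini-Hochberg adjustment within each comparison and prior degrees of freedom of 6.96. Differences are later minus earlier. A change passed the test at an adjusted p under 0.05. Sex was compared over 9 pairs with stage as a block, and ratios were added to the table as rows. Each gene was read from its probe set with the highest mean over all arrays, and other probe sets are named where their direction differs. Pathway genes are named where they met the study's limits, up to 6 per comparison, or where a short count is named in full. For each member the 3 nearest genes are named. The members, lists and ratios were chosen with earlier results of these data known, and the pairs of probe sets after their values were seen. Titles of the arrays change their prefix at the E16.5 female array. Whether that marks a batch is not stated, and arrays with and without it share a stage only at E16.5. Promoter windows and positions come from RefSeq (GRCm38.p6), which has windows for 6 of the 10 members. The procedure was tested on simulated data. The alternatives were quantile renormalization, median centring, an expression filter before the model, only the arrays compared, the title prefix or sex label as a block, the hybridization control level as a covariate, other limits and probe sets, and leaving out each array. Renormalization of the daily steps and of the sex contrast between mature and embryonic hearts was added after seeing the data.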

Additional observations from a re-analysis of the deposited data

How the results depend on the processing

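Of 40 changes of single members, 24 kept their direction and their side of the threshold in every alternative run. The hybridization control covariate turned Ryr2 from E10.5 to young adult to 0.54 and Trdn from E19.5 to young adult to -0.019. The cause was not tested. Young adult arrays lie above all others in that level, at 12.03 to 12.43.

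The count of members within the study's limits was 5 from E10.5 to young adult, 6 with median centring and 9 with an adjusted p under 0.05 alone. The members that left or entered with the hybridization control level or the title prefix are named above. Smaller moves of this count under other alternatives are not all listed. The shares of all probe sets given above belong to the deposited values, at the study's limits or at an adjusted p under 0.05. Under the other alternatives, those of the slopes included, shares were not counted, so no background stands beside those counts. The count was 5 in each fit without 1 array. From E10.5 to E19.5 it was 1, and it became 3 with quantile renormalization, 3 with median centring, 3 with a log2 limit of 1, 9 with an adjusted p under 0.05 alone, 2 with any probe set, and 1 to 2 without 1 array. It was 2 without E10.5 array 3, E19.5 array 2, or old adult arrays 2 or 3. From E19.5 to young adult it was 1, and it became 2 with median centring, 0 with only the arrays compared, 2 with a log2 limit of 1, 6 with an adjusted p under 0.05 alone, 2 with any probe set, and 0 to 2 without 1 array. It was 0 without E19.5 arrays 1 or 2 or young adult array 1, and 2 without old adult array 3. Between young and old adult it was 0, and 1 with an adjusted p under 0.05 alone. Genes with a slope over the embryonic days were 9, and 5 with the title prefix as a block. The change of the ratio of Pln to Atp2a2 over probe set means was 0.54 to E19.5 and 1.09 from there to young adult, and it ran from 0.27 to 0.54 to E19.5 without 1 array. The other ratios kept their calls in all alternatives run.

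The labels number no replicates across stages, so that the sex label served as the replicate block. With it the counts within the study's limits were 1 from E19.5 to young adult and 0 for old against young adult, and no call of a member changed, with Trdn at 0.53 and Ryr2 with age at 0.66. With 3 arrays per stage small changes are not detectable, and values under 5, as of Sln at E10.5, lie near the background of the arrays.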

Other observations

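4632404M16Rik, a non-coding transcript from within Casq2, was highest late in gestation. It stood at 3.77 ± 0.12 (SD, n = 3) at E10.5, 8.84 ± 0.21 at E18.5, 6.09 ± 0.10 in young adults and 5.53 ± 0.34 in old adults. By limma it rose by 4.57 ± 0.19 (SE) from E10.5 to E19.5 (adjusted p = 7.5e-18) and fell by 2.25 from E19.5 to young adult (SE 0.19, adjusted p = 1.2e-10), and the -0.56 ± 0.19 with age did not pass (adjusted p = 0.0707).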
